A study of Saccharomyces cerevisiae with 24 samples.

Results

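Cytosolic heat-shock chaperones were followed through ribosome profiling of budding yeast (Saccharomyces cerevisiae): the Hsp70 genes SSA1, SSA2, SSA3 and SSA4, the J-protein genes YDJ1 and SIS1, the Hsp90 genes HSP82 and HSC82, the disaggregase gene HSP104 and the small heat-shock protein gene HSP26. These 10 genes were chosen by name, out of 6696 genes in the count tables and 6663 transcripts in the codon tables. All 10 passed the filters on low values of the main tests, though SSA3 did not reach every stricter filter among the alternatives. Ribosome profiling counts the messenger fragments that ribosomes shield from RNase I, so a gene's level here is the amount of ribosome footprint on its coding sequence and not protein, and in these bulk samples fewer cells, less message per cell and fewer ribosomes per message cannot be told apart. The study asked how Hel2, a ubiquitin ligase that recognises collided ribosomes, acts on the secretory pathway. All 24 libraries came from MATa ade2 his3 leu2 trp1 ura3 can1 cells that carried HEL2-FTP::natNT2, grown in YPD at 30 °C to an OD600 of 0.5 to 0.6, with 2 replicates in each of 12 groups. The strain called HEL2-FTP kept its chromosomal SRP72, while the other strains were srp72::HISMX6 and carried pRS415-SRP72p-SRP72-V5 (label SRP72p) or pRS415-GIT1p-SRP72-V5 (label GIT1p), so their signal recognition particle subunit Srp72 came from a plasmid under the SRP72 or the GIT1 promoter. Each strain gave a cytosolic and a membrane fraction, the latter solubilised with 1% Triton X-100, and footprints were sequenced from each fraction as a whole (input) and from the material pulled down with tagged Hel2 (IP, immunoprecipitate). Every IP came from a Hel2-tagged strain, and no IP from an untagged strain was analysed here. The labels do not say whether replicates came from separate cultures, so p-values measure the spread between libraries.

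Cytosolic chaperones form a relay. Hsp70 proteins grip exposed hydrophobic stretches of unfolded or newly made chains in an ATP-driven cycle, J-proteins bring substrates to Hsp70 and trigger its ATP hydrolysis, and nucleotide exchange factors reset it. Hsp90 acts later, on kinases, receptors and other nearly folded clients, with a set of co-chaperones. Hsp104 pulls single chains out of aggregates together with Hsp70, and Hsp26 holds unfolding proteins in a state from which they can be rescued. In yeast the transcription factor Hsf1 drives many of these genes, and SSA1, SSA2 and HSC82 are made in quantity without stress whereas SSA3, SSA4 and HSP26 are known as stress-induced genes.

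Label and depth checks came first. Srp72 is the protein whose expression the plasmids alter: SRP72 stood at 142 ± 0.517 CPM (counts scaled to a library total of 1e6, given as mean ± SD over 2 libraries) under the label SRP72p in cytosolic inputs and at 375 ± 10.1 CPM under the label GIT1p, against 131 ± 3.58 RPM (reads scaled to the same total) in HEL2-FTP. SRP72 footprints were thus higher, not lower, in the libraries labelled GIT1p, and every direction below is given by label. HEL2, the tagged gene, held 431 ± 10.1 RPM in the cytosolic IPs of HEL2-FTP, a log2 change of 2.10 (SE 0.05) from the inputs, and went from 83.0 ± 1.04 to 389 ± 5.04 RPM in the membrane fraction, a change of 2.22 (SE 0.05). In SRP72p it went from 79.5 ± 3.55 to 59.5 ± 0.580 CPM in the cytosol, called lower at -0.36 (SE 0.12) after TMM scaling, and from 71.6 ± 3.75 to 97.9 ± 3.91 CPM in the membrane fraction, called higher at 0.60 (SE 0.11). In GIT1p it went from 81.7 ± 2.34 to 65.6 ± 6.02 CPM and from 77.0 ± 6.77 to 55.7 ± 0.627 CPM, neither called (0.05 (SE 0.11) and -0.02 (SE 0.12)). HEL2 footprints were thus called higher in both HEL2-FTP IPs and in 1 of the 4 kinds of IP of the other strains, and the part of this in the chaperone values set side by side across strains was not tested. MATa genes such as STE2 (25.3 to 270 RPM or CPM over the 24 libraries) and MFA2 (34.5 to 116) were present throughout, while the MATalpha genes STE3, MF(ALPHA)1 and MF(ALPHA)2 reached at most 3.95, 4.02 and 0.702 and SAG1 at most 14.6. In the HEL2-FTP inputs all 7 membrane markers, among them STT3 and SEC61, were higher in the membrane fraction, and none of 6 glycolytic markers passed the test. The count libraries held 2015928 to 13093023 counts, and the inputs labelled GIT1p were deeper (5608488 to 13093023) than those labelled SRP72p (3327159 to 5587209). At these depths 3 counts are worth 0.229 to 1.49 CPM, far below every chaperone gene except SSA3, and such floors cover counting error only. The SRP72p membrane inputs were the least alike of all replicate pairs in the count files, where chi-square over its degrees of freedom was 78.3 across genes, against 2.13 to 17.6 in the other 7 pairs.

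Footprints on the 10 genes made up 3.13% to 4.00% of each input library and 1.93% to 2.55% of each IP library, so the share was smaller in all 12 IP libraries than in any input. Per kilobase of coding sequence, the cytosolic inputs of HEL2-FTP ranked SSA2 (5108 ± 66.1 RPM per kb), SSA1 (4798 ± 98.3), HSC82 (2051 ± 45.0), HSP82 (1544 ± 12.7) and HSP104 (1079.8 ± 16.5) at the top (mean ± SD, n = 2). SIS1 (819.8 ± 28.3 RPM per kb), HSP26 (786 ± 4.88), SSA4 (649.5 ± 7.31) and YDJ1 (639.7 ± 8.47) followed, and the replicates of SSA4 and YDJ1 overlapped. SSA3 lay far below the rest at 4.55 ± 0.381 RPM per kb. The abundant Hsp70 messages therefore carried far more footprint per length than SSA3 in cells growing at 30 °C.

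SSA1 and SSA2 cannot be fully separated. Their RPM was equal (within a relative tolerance of 1e-06) at 326 of 640 aligned codons in all 8 HEL2-FTP libraries, with the longest equal runs at codons 443 to 544, 336 to 408 and 274 to 313. In the membrane inputs the equal codons carried 17.1 and 17.0 RPM per codon in each gene, against 9.22 and 9.58 at the differing codons of SSA1 and 11.3 and 11.5 at those of SSA2. The levels of SSA1 and SSA2, and the summed shares above, therefore contain footprints credited to both genes. For the HEL2-FTP cytosol their IP/input changes are also given over the differing codons. Their position along the message was not tested over those codons alone. HSP82 and HSC82 had equal values at 1 of 706 codons counted from the start and at 6 counted from the stop. Their lengths differ (710 and 706 codons), so either count can miss shared codons. The pairs of SSA3 and SSA4 with each other and with SSA1 or SSA2 that were compared had none.

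**Figure D1:**
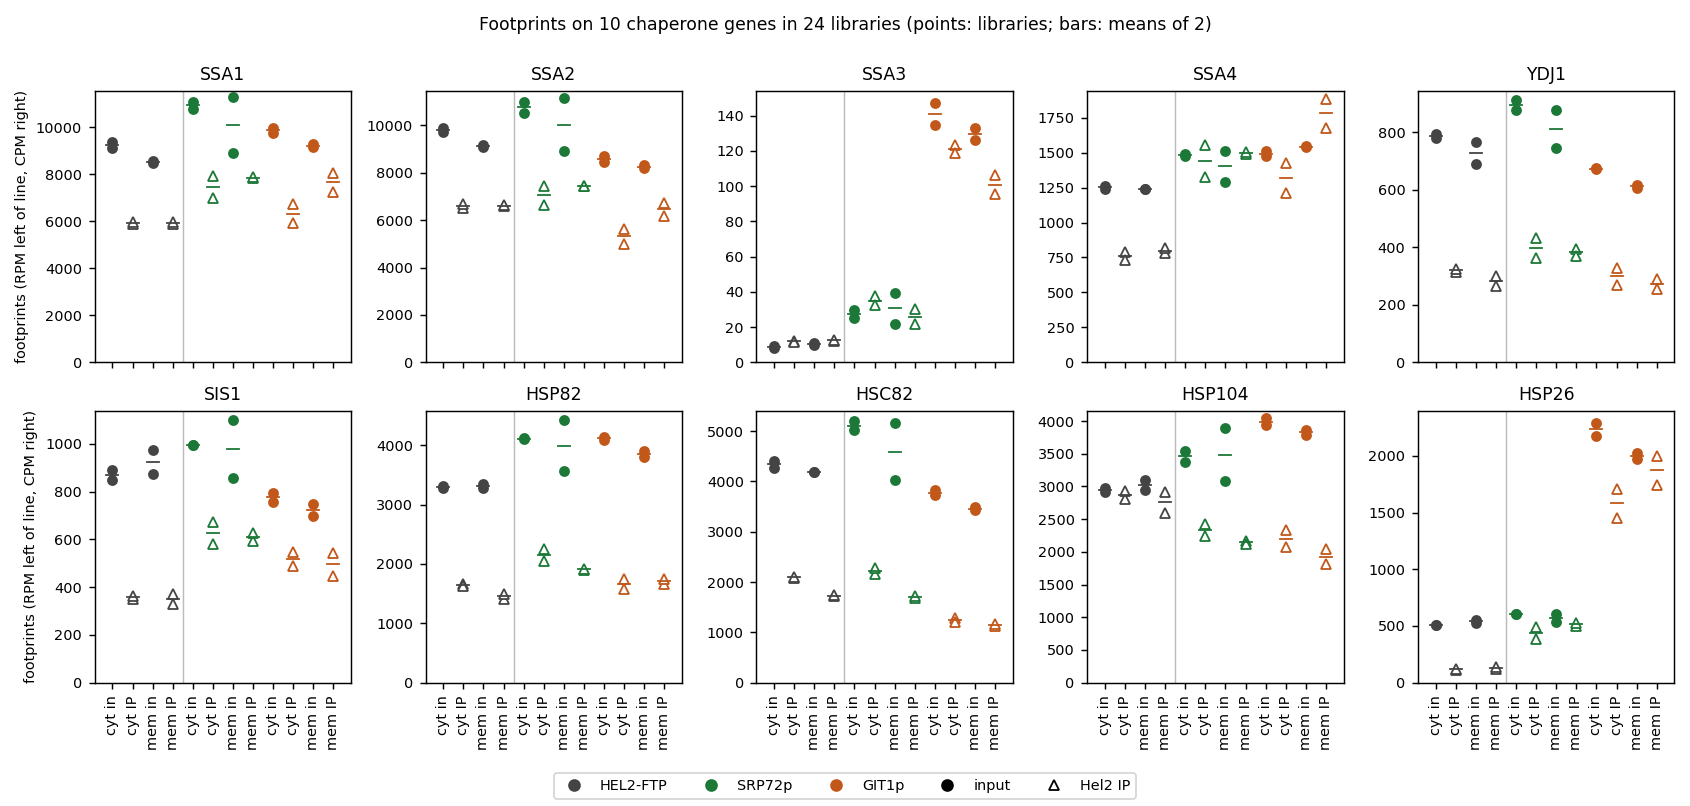
Footprint level of each chaperone gene in all 24 libraries (linear axis from 0, RPM for HEL2-FTP and CPM for SRP72p and GIT1p), with a point per library, a bar at each mean of 2, colours for strains and triangles for Hel2 IPs. SSA3 is the lowest of the 10 in every library, and SSA3 and HSP26 are higher in the libraries labelled GIT1p than in those labelled SRP72p.

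Membrane and cytosolic inputs were compared to ask whether chaperone translation followed the fractionation. None of the 10 genes passed the test in HEL2-FTP, SRP72p or GIT1p, while 54.2%, 20.8% and 16.7% of all genes tested did, in that order. Tests were limma for the HEL2-FTP files, which hold RPM, and edgeR's quasi-likelihood test for the count files, with p-values adjusted by Benjamini-Hochberg over all genes and a call at an adjusted p below 0.05. At an unadjusted p below 0.05, 2 genes in HEL2-FTP and none in the other strains passed. The HEL2-FTP log2 changes, membrane over cytosol, ran from -0.12 for SSA1 to 0.22 for SSA3, with a median of -0.002 over the 10 genes and -0.13 over all genes tested. KAR2 and LHS1, Hsp70-class chaperones of the endoplasmic reticulum, were higher in the membrane inputs by 3.86 and 3.96 on the same scale. The absence of calls did not hold under every setting. With each HEL2-FTP library centred on its median gene, the median of all genes fell to -0.41. Then 9 of the 10 genes were called lower in the membrane fraction, as were 4143 of the 5532 genes tested, with 1011 higher. DESeq2 called 7 of the 10 lower in SRP72p, with 1030 of all genes lower and 848 higher. Without some single SRP72p input libraries edgeR called members there as well, not all of them lower.

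Hel2 IP and input were compared in each strain and fraction. Chaperone footprints were mostly lower in the IP. In the HEL2-FTP cytosol 8 of the 10 genes fell and 1 rose, where 89.2% of all genes were called, 35.6% lower and 53.6% higher. In the HEL2-FTP membrane fraction 8 fell and 1 rose, against 88.4% of all genes called, 43.0% lower and 45.4% higher. In the SRP72p cytosol 8 fell and none rose, with 68.7% of all genes called and 31.0% lower. In its membrane fraction 5 fell and none rose, with 60.1% called and 33.0% lower. In the GIT1p cytosol 5 fell and none rose, with 69.5% of all genes called and 33.2% lower, and with library size alone 8 fell, with 1683 of all genes higher and 2694 lower in place of 2072 and 1898. In its membrane fraction 4 fell and 2 rose, with 62.4% called, 37.2% lower and 25.2% higher. The share of all genes called was thus high in every one of these comparisons, and the 4 lower calls in the GIT1p membrane fraction were close to the share over all genes. YDJ1, HSP82 and HSC82 fell in all 6 comparisons of IP with input. Glycolytic genes, the markers of the cytosol, were also mostly lower. Of these 6 genes, 5 were called lower in each comparison except the GIT1p membrane fraction, where 4 were. In the SRP72p cytosol the remaining 1 was called higher. All 7 membrane markers were higher in the cytosolic IP of each strain. In the membrane IP 2 of them were higher and 2 lower in HEL2-FTP, 1 and 5 in SRP72p and 1 and 4 in GIT1p. The median log2 change of the 10 genes was -0.86, -0.91, -0.54, -0.40, -0.31 and -0.02 in the order in which the 6 comparisons were given above, beside 0.34, 0.02, 0.11, -0.15, -0.04 and -0.24 for all genes tested. Centring the HEL2-FTP libraries on their medians moved the median of all genes from 0.34 to -0.12 in the cytosol and left the 8 falls in place, while scaling GIT1p by library size alone moved the median of all genes from -0.24 to -0.68 in the membrane fraction. For SRP72p and GIT1p the levels in CPM below use library totals and the log2 changes use TMM scaling, so the log2 changes can lie above or below the ratio of the CPM.

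**Figure D2:**
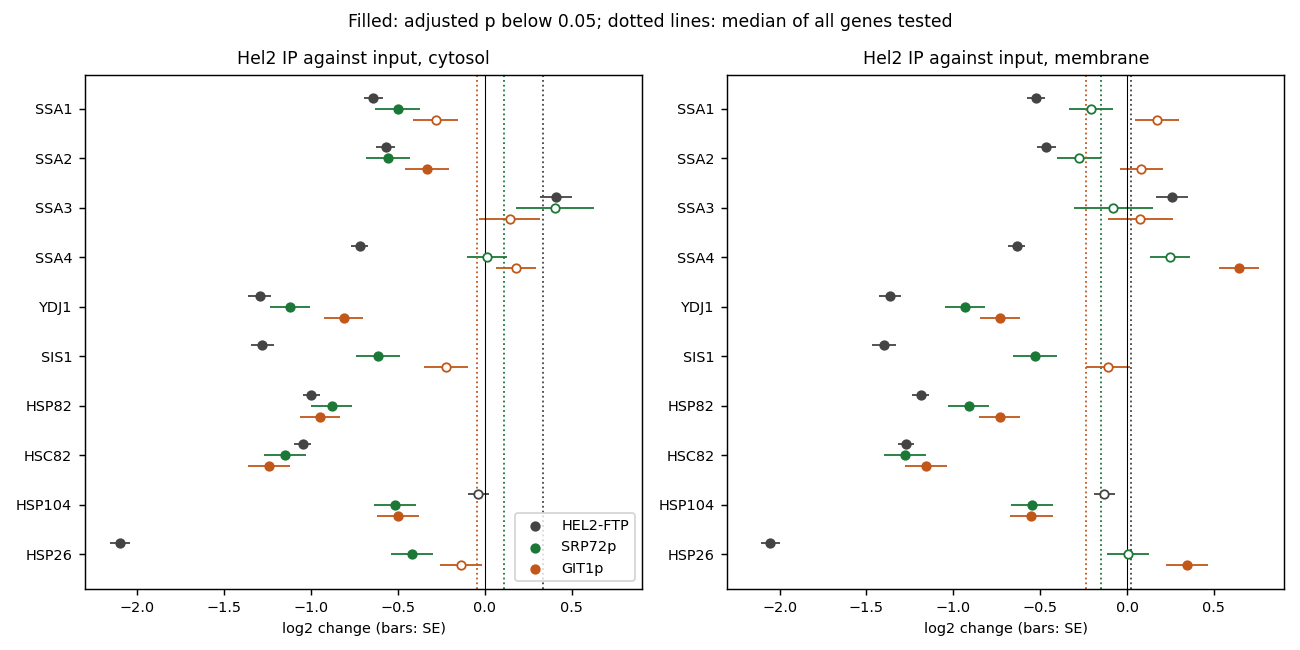
Log2 change of each chaperone gene, Hel2 IP against input, in cytosolic (left) and membrane (right) fractions of HEL2-FTP, SRP72p and GIT1p, with bars for the standard error of the fit, filled symbols for calls at an adjusted p below 0.05 and dotted lines at the median of all genes tested. YDJ1, HSP82 and HSC82 lie below 0 in all 6 comparisons, whereas HSP26 is at -2.10 and -2.05 in HEL2-FTP and between -0.42 and 0.34 in the other strains (-0.09 instead of 0.34 in the GIT1p membrane fraction with library size alone).

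Libraries labelled GIT1p and SRP72p were compared to ask how chaperone translation differed with the promoter of the SRP72 plasmid. SSA3 and HSP26 stood out upward and HSC82, YDJ1 and SIS1 were lower, in cytosolic and membrane inputs alike. Of the 10 genes, 2 were higher and 4 lower in the cytosolic inputs, where 25.8% of all genes were called, 13.4% higher and 12.4% lower. In the membrane inputs 2 were higher and 3 lower, against 18.3% of all genes called, 12.0% higher and 6.30% lower. SSA3 was above 98.5% and HSP26 above 97.4% of genes in the cytosolic ranking. The change in IP/input between the labels, tested as an interaction, was called for none of the 10 genes in either fraction by edgeR, with 1 (cytosol) and 2 (membrane) of the 10 at an unadjusted p below 0.05 and with 11.1% and 2.45% of all genes called. DESeq2 called 5 of the 10 higher in the membrane fraction, where it called 264 of all genes, 201 of them higher. Without SRP72p membrane input replicate 1 edgeR called members there as well. HEL2-FTP was not tested against the other strains, since its files hold another unit.

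**Figure D3:**
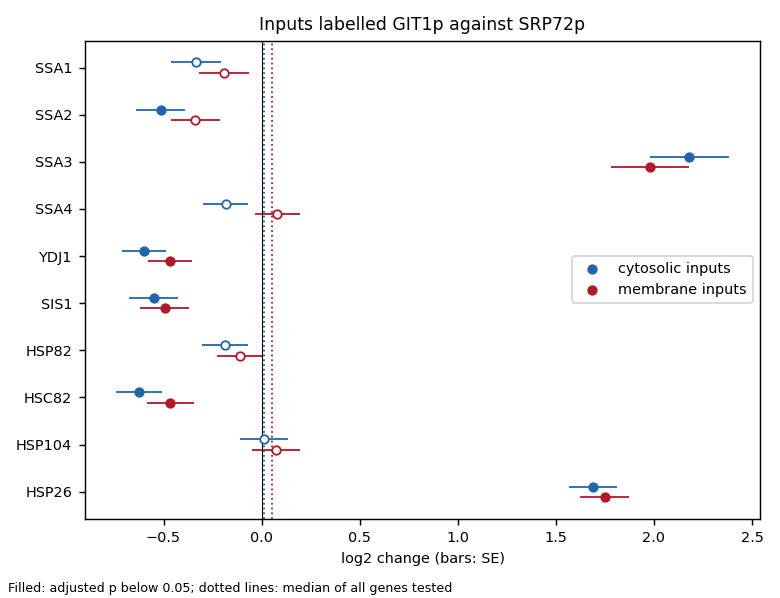
Log2 change of each chaperone gene between inputs labelled GIT1p and SRP72p, in the cytosolic and the membrane fraction, with bars for the standard error of the fit, filled symbols for calls at an adjusted p below 0.05 and dotted lines at the median of all genes tested. SSA3 and HSP26 lie at 1.69 to 2.18, and the other 8 genes lie between -0.62 and 0.08.

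SSA1 (YAL005C, chrI:139503-141431, minus strand) and SSA2 (YLL024C, chrXII:95566-97485, minus strand) encode the constitutive Hsp70 proteins of the cytosol. Coordinates are those of the coding sequences in the R64 assembly, which is sacCer3. SSA1 measured 9389 and 9121 RPM in the HEL2-FTP cytosolic inputs and 5879.8 and 5986 RPM in the matching IPs. In the membrane fraction it measured 8483 and 8586 RPM in the inputs and 5905 and 5956 RPM in the IPs. All 4 IP values lay below all 4 input values, and SSA2 behaved in the same way, with inputs of 9898 and 9719 RPM and IPs of 6508 and 6698 RPM in the cytosol. The log2 change was -0.64 (SE 0.05, adjusted p = 1.6e-07) for SSA1 and -0.57 (SE 0.05, adjusted p = 5.6e-07) for SSA2 in the cytosol (limma). Over the codons that differ between the genes it was -0.54 and -0.39, so the fall was smaller but still called (adjusted p = 5e-07 and 1.6e-05). In SRP72p the cytosolic IPs again fell, by 0.50 (SSA1) and 0.56 (SSA2) on the log2 scale. SSA1 read 10774 and 11080.0 CPM in those inputs and 6973 and 7909 CPM in those IPs. In GIT1p the cytosolic change of SSA2, -0.33 (SE 0.13, adjusted p = 0.029), was called and that of SSA1, -0.28 (SE 0.13, adjusted p = 0.061), was not with TMM but was with library size alone (-0.64, adjusted p = 0.0011), DESeq2 (adjusted p = 0.018) and no filter on low counts (adjusted p = 0.044). The SSA2 call was lost without any single 1 of the 4 libraries. The membrane fractions gave no such call in the strains with plasmid-borne SRP72: SSA1 changed by -0.21 (SE 0.13, adjusted p = 0.17) in SRP72p and by 0.17 (SE 0.13, adjusted p = 0.26) in GIT1p (edgeR). There the SRP72p membrane inputs of SSA1 were 8924 and 11287 CPM, a wide spread, against 7835 and 7878 CPM in the IPs, and without input replicate 1 the change was called at -0.36 (adjusted p = 0.0054). With DESeq2 size factors the GIT1p membrane IPs were called higher for SSA1, at 0.39, and for SSA2, at 0.30, while library size alone turned SSA2 to -0.36. Whether the fractions differ in this respect was not tested within SRP72p or GIT1p.

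Per length, SSA2 exceeded SSA1 in HEL2-FTP (ratios of 1.06 and 1.07 in the cytosolic inputs), was close to it in SRP72p (0.981 and 0.997) and lay below it in GIT1p (0.871 and 0.876). Between the labels, the cytosolic inputs of SSA2 were 10520.0 and 10990.0 CPM for SRP72p and 8473 and 8711 CPM for GIT1p, without overlap. SSA2 was lower under the GIT1p label, with a log2 change of -0.51 (SE 0.13, adjusted p = 0.0077), and the change of SSA1, -0.34 (SE 0.13, adjusted p = 0.068), was called with DESeq2 size factors (-0.48) but not with TMM. The membrane inputs of SSA2 changed by -0.34 (SE 0.13, adjusted p = 0.079), which was called without SRP72p membrane input replicate 1 (-0.48, adjusted p = 0.0024). The SSA2 call was lost with library size alone (adjusted p = 0.11) and without either GIT1p cytosolic input. How the shared codons were apportioned in the count files is not given in the sources used here.

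SSA3 (YBL075C, chrII:84499-86448, minus strand) and SSA4 (YER103W, chrV:364589-366517, plus strand) encode the stress-inducible Hsp70 proteins. SSA3 was the scarcest chaperone message, with 9.39 and 8.34 RPM in the HEL2-FTP cytosolic inputs and 12.1 and 11.7 RPM in the IPs. Its membrane inputs held 10.9 and 9.87 RPM and its membrane IPs 12.3 and 12.8 RPM. SSA3 was thus the member that rose in the HEL2-FTP IPs, by 0.41 (SE 0.09, adjusted p = 0.0011) in the cytosol and 0.26 (SE 0.09, adjusted p = 0.019) in the membrane fraction (limma), but with libraries centred on their medians these values turned to -0.04 and -0.03, and the membrane call was lost without either membrane input replicate 2 (adjusted p = 0.14) or IP replicate 2 (0.090). Under the SRP72p label SSA3 rested on 44 to 220 counts a library. Its cytosolic inputs were 29.8 and 25.0 CPM under SRP72p and 147 and 135 CPM under GIT1p. Its membrane inputs were 39.4 and 21.8 CPM and 133 and 126 CPM. Every GIT1p library lay above every SRP72p library, and the log2 change between labels was 2.18 (SE 0.20, adjusted p = 4.3e-06) in the cytosol and 1.98 (SE 0.20, adjusted p = 8.5e-06) in the membrane fraction (edgeR). These were the largest label differences among the 10 genes in both fractions, and both were called under every alternative run. In the cytosolic IPs, which were not tested between labels, SSA3 held 37.5 and 32.4 CPM under SRP72p and 123 and 119 CPM under GIT1p, and SSA3 was not called between IP and input in any SRP72p or GIT1p fraction with edgeR and its default filter.

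SSA4 behaved unlike SSA3 between labels. Its cytosolic inputs were 1476 and 1492 CPM under SRP72p and 1476 and 1508 CPM under GIT1p, and the change of -0.18 (SE 0.12, adjusted p = 0.27) did not pass the test with TMM, though DESeq2 size factors called it lower (-0.32, adjusted p = 0.040). Between IP and input the strains gave these values, whose difference between the labels was not called (0.17 (SE 0.16) in the cytosol and 0.40 (SE 0.16) in the membrane fraction, adjusted p = 0.56 and 0.21). HEL2-FTP inputs held 1263 and 1243 RPM and IPs 788 and 735 RPM in the cytosol, a log2 change of -0.72 (SE 0.05, adjusted p = 2.6e-08). SRP72p cytosolic inputs held 1476 and 1492 CPM and IPs 1327 and 1558 CPM, which overlap, with a change of 0.01 (SE 0.12). The SRP72p membrane change of 0.25 (SE 0.12, adjusted p = 0.076) was called higher with DESeq2 size factors (0.36) and without SRP72p membrane input replicate 2 (0.35). GIT1p membrane inputs held 1539.9 and 1547 CPM and IPs 1676 and 1885 CPM, and SSA4 was higher there by 0.64 (SE 0.12, adjusted p = 0.00024). With library size alone that last change was 0.21 and no longer called (adjusted p = 0.18), so its call rests on the scaling. Relative to SSA1 and per length, SSA4 went from 0.169 and 0.167 in the GIT1p membrane inputs to 0.231 and 0.234 in the IPs, whereas the cytosolic ratio in HEL2-FTP went from 0.135 and 0.136 to 0.134 and 0.123. Such ratios within a library do not depend on the scaling.

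YDJ1 (YNL064C, chrXIV:505868-507097, minus strand) encodes the farnesylated J-protein that serves Ssa proteins in folding and in delivery of precursors to organelles, and SIS1 (YNL007C, chrXIV:618507-619565, minus strand) the essential J-protein of the other class. YDJ1 inputs in the HEL2-FTP cytosol were 794 and 779 RPM and its IPs 314 and 326 RPM. In the membrane fraction they were 690.0 and 767 RPM and 266 and 300.0 RPM. The groups were far apart in both fractions, with log2 changes of -1.30 (SE 0.06, adjusted p = 1.3e-09) and -1.36 (SE 0.06, adjusted p = 9.9e-10). YDJ1 also fell in the other strains: cytosolic values went from 875 and 911 to 361 and 431 CPM in SRP72p and from 674 and 672 to 329 and 269.8 CPM in GIT1p, log2 changes of -1.12 (SE 0.11, adjusted p = 8e-07) and -0.81 (SE 0.11, adjusted p = 1.8e-05). The inputs themselves were lower under the GIT1p label, with log2 changes of -0.60 (SE 0.11, adjusted p = 0.0014) in the cytosol and -0.47 (SE 0.11, adjusted p = 0.010) in the membrane fraction. The membrane call was lost without either GIT1p membrane input (adjusted p = 0.081 and 0.056).

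SIS1 inputs and IPs in the HEL2-FTP cytosol were 847 and 889 RPM and 349.9 and 364 RPM, a log2 change of -1.28 (SE 0.07, adjusted p = 2.4e-09). SRP72p cytosolic inputs held 995 and 997 CPM and IPs 579 and 674 CPM, a change of -0.62 (SE 0.13, adjusted p = 0.00058). GIT1p cytosolic inputs held 756 and 796 CPM and IPs 547 and 489 CPM, a change of -0.22 (SE 0.13, adjusted p = 0.12) that did not pass. The cytosolic IP values of SIS1 lay below its inputs in all 3 strains, and in GIT1p, where TMM scaling gave no call, library size alone called it lower (-0.58 in the cytosol and -0.55 in the membrane fraction). Between labels the inputs were lower under GIT1p, with log2 changes of -0.55 (SE 0.13, adjusted p = 0.0050) in the cytosol and -0.49 (SE 0.13, adjusted p = 0.013) in the membrane fraction. The cytosolic call was lost with library size alone (adjusted p = 0.070) and without GIT1p cytosolic input replicate 1 (0.052), and the membrane call without SRP72p membrane input replicate 2 (0.060) or GIT1p membrane input replicate 1 (0.12).

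HSP82 (YPL240C, chrXVI:96496-98625, minus strand) and HSC82 (YMR186W, chrXIII:632355-634472, plus strand) encode the nearly identical Hsp90 proteins, the former stress-inducible and the latter constitutive. Both were lower in the Hel2 IP in every strain and fraction. HSC82 inputs and IPs in the HEL2-FTP cytosol were 4411 and 4276 RPM and 2086 and 2110.4 RPM, a log2 change of -1.05 (SE 0.05, adjusted p = 4.8e-10). In the membrane fraction they were 4181 and 4197 RPM and 1719.5 and 1747 RPM, a change of -1.27 (SE 0.05, adjusted p = 1e-10). HSP82 went from 3308 and 3269.9 RPM to 1655 and 1635 RPM in the cytosol, a change of -0.9993 (SE 0.05, adjusted p = 9.6e-10). No input library overlapped an IP library for either gene. The fall of HSC82 in HEL2-FTP was larger in the membrane fraction than in the cytosol, with a difference in log2 change of -0.22 (SE 0.07, adjusted p = 0.025), and it was the only gene of the 10 called in that interaction test, where 29.2% of all genes were called and 25.9% were lower. Centring libraries on their medians left a difference of -0.06 (adjusted p = 0.51), and the call held without cytosolic input replicate 1 but not without any other of the 8 libraries. HSC82 changed by -1.15 (SE 0.12) and -1.28 (SE 0.12) in SRP72p and by -1.24 (SE 0.12) and -1.16 (SE 0.12) in GIT1p, cytosol and membrane in turn, and HSP82 by -0.88 (SE 0.12), -0.91 (SE 0.12), -0.95 (SE 0.12) and -0.73 (SE 0.12). The largest adjusted p among these 8 was 9e-05 (edgeR).

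The ratio of the Hsp90 messages moved with strain and with IP. Per length, HSC82 over HSP82 was 1.34 and 1.31 in the HEL2-FTP cytosolic inputs, 1.27 and 1.23 in those of SRP72p and 0.940 and 0.907 in those of GIT1p. The HEL2-FTP and SRP72p inputs thus held more HSC82 than HSP82, and the GIT1p inputs more HSP82. In the IPs of the membrane fraction the ratio was lower than in the inputs of each strain, at 1.22 and 1.18 against 1.28 and 1.26 in HEL2-FTP, 0.896 and 0.898 against 1.14 and 1.17 in SRP72p and 0.673 and 0.673 against 0.900 and 0.907 in GIT1p. These ratios are descriptions and were not tested. Between labels HSC82 went from 5198 and 5027 CPM under SRP72p to 3826 and 3735 CPM under GIT1p in the cytosolic inputs, a log2 change of -0.62 (SE 0.12, adjusted p = 0.0015). The membrane inputs changed by -0.47 (SE 0.12, adjusted p = 0.013), a call that was lost without GIT1p membrane input replicate 1 (adjusted p = 0.097) or replicate 2 (0.10). HSP82 held 4100.5 and 4117 CPM and 4094 and 4141 CPM, overlapping groups, with a change of -0.19 (SE 0.12, adjusted p = 0.26). With DESeq2 size factors HSP82 was called lower as well, at -0.33.

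HSP104 (YLL026W, chrXII:88623-91349, plus strand) encodes the hexameric disaggregase. At 2727 nt it has the longest coding sequence of the 10. Its HEL2-FTP cytosolic inputs held 2913 and 2977 RPM and its IPs 2805 and 2936 RPM, and the groups overlapped, with a log2 change of -0.04 (SE 0.06, adjusted p = 0.57). In the membrane fraction the inputs held 2939.6 and 3096 RPM and the IPs 2600.2 and 2919.6 RPM, a change of -0.13 (SE 0.06, adjusted p = 0.064). HSP104 was the only gene of the 10 not called between IP and input in HEL2-FTP, though without membrane IP replicate 2 its membrane change was called (-0.21, adjusted p = 0.012). With libraries centred on their medians it was called lower, at -0.49 in the cytosol and -0.42 in the membrane fraction. In the other strains HSP104 fell: the cytosolic inputs of SRP72p held 3379 and 3548 CPM and its IPs 2246 and 2424 CPM, and those of GIT1p 3936 and 4043 CPM and 2327 and 2068 CPM. The log2 changes were -0.52 (SE 0.12, adjusted p = 0.0018) and -0.50 (SE 0.12, adjusted p = 0.0021), and those of the membrane fractions were -0.55 (SE 0.12) and -0.55 (SE 0.12). Between labels its inputs changed by 0.01 (SE 0.12) in the cytosol and 0.07 (SE 0.12) in the membrane fraction, which did not pass.

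HSP26 (YBR072W, chrII:382030-382674, plus strand) encodes a small heat-shock protein that forms large oligomers. It has the shortest coding sequence of the 10, 645 nt, and it gave the deepest fall in the HEL2-FTP IPs. Its cytosolic inputs held 505 and 509 RPM and its IPs 115 and 120.3 RPM, and its membrane inputs held 526 and 557 RPM and its IPs 124 and 137 RPM. The log2 changes of -2.10 (SE 0.06, adjusted p = 4.9e-12) and -2.05 (SE 0.06, adjusted p = 7.7e-12) correspond to 4.29-fold and 4.15-fold lower levels, and only 0.777% and 0.633% of all genes lay further down. In SRP72p the cytosolic inputs held 606 and 608 CPM and the IPs 387 and 488 CPM, a change of -0.42 (SE 0.12, adjusted p = 0.0071), and this call was lost without the filter on low counts (adjusted p = 0.16) and without SRP72p cytosolic IP replicate 1 (0.094). Its SRP72p membrane inputs held 532 and 608 CPM and the IPs 500.5 and 528 CPM, with no call. In the GIT1p membrane fraction the inputs held 2022 and 1974 CPM and the IPs 1740.4 and 2003 CPM. TMM scaling gave HSP26 a rise of 0.34 (SE 0.12, adjusted p = 0.023) there, library size alone gave -0.09, and the call was lost without GIT1p membrane input replicate 1 (adjusted p = 0.084), input replicate 2 (0.11) or IP replicate 2 (0.18). Between labels the cytosolic inputs held 606 and 608 CPM under SRP72p and 2179 and 2288 CPM under GIT1p. The change of 1.69 (SE 0.12, adjusted p = 4.9e-07) in the cytosol and 1.75 (SE 0.12, adjusted p = 3.7e-07) in the membrane fraction was called under every alternative run, and no library of the lower group reached the higher one.

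Coding length and level moved with these IP changes. Across all genes tested, longer genes had higher IP/input changes (Spearman's rho of 0.653 over 5532 genes in the HEL2-FTP cytosol, and 0.470 to 0.603 in the other 5 comparisons), a correlation across genes, which are not independent replicates. Genes with higher input levels had lower ones, with a rho with level of -0.376 in the HEL2-FTP cytosol and -0.383 to -0.159 elsewhere. Level here is the mean of the inputs, which are also the denominator of the change, so the 2 share noise. Among the 10 chaperone genes the rho with level was 0.261 and 0.248 in HEL2-FTP, -0.358 and -0.285 in SRP72p and -0.382 and 0.030 in GIT1p, cytosol and membrane in turn. Among the chaperone genes the correlation with length was positive in HEL2-FTP (rho of 0.620 in the cytosol and 0.632 in the membrane fraction, 10 genes) and negative in SRP72p (-0.091 and -0.353) or GIT1p (-0.420 and -0.480). In the HEL2-FTP cytosol genes under 750 nt had a median change of -0.81, those of 1000 to 2000 nt 0.51 and those over 2000 nt 1.69. All 10 chaperone genes lay below the median of their length class there, HSP26 and the 3 members over 2000 nt included (HSP82, HSC82 and HSP104, at -0.9993, -1.05 and -0.04). In the other strains HSP26 lay above the median of genes under 750 nt. It stood at -0.42 against -0.97 and 0.004 against -0.78 in SRP72p, cytosol and membrane in turn. In GIT1p it stood at -0.14 against -0.74 and 0.34 against -0.77. SSA3, at 0.41, lay nearest to the median of its class among the members of 1000 to 2000 nt. The part of length and level in the chaperone changes was not tested.

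**Figure D4:**
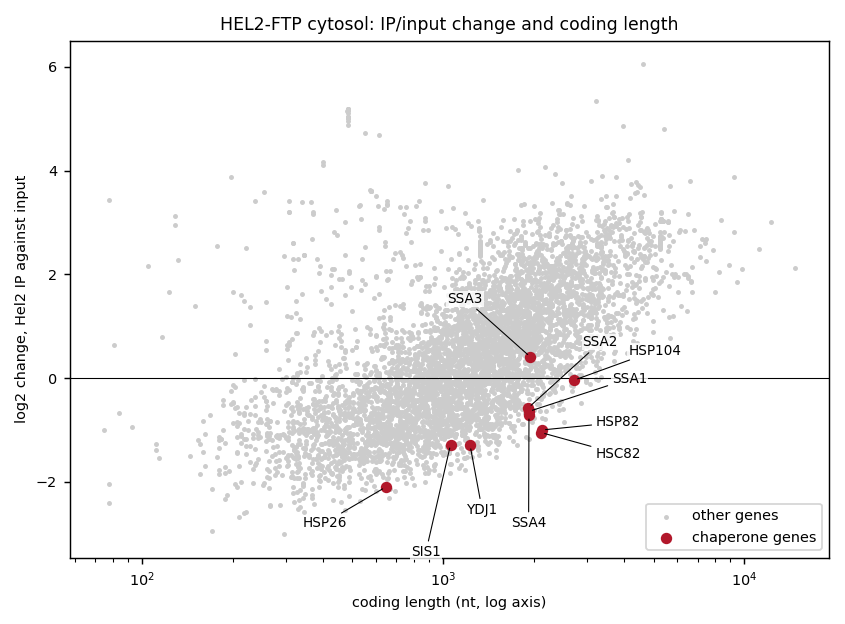
Log2 change in the HEL2-FTP cytosol, Hel2 IP against input, of each gene tested against its coding length (log axis, nt), with the chaperone genes in red. HSP26 lies at -2.10 among short genes, and HSP82, HSC82 and HSP104 lie below the median of genes over 2000 nt, which is 1.69.

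The codon tables of HEL2-FTP also show where on each message the footprints lay. Hel2 IP footprints of all 10 chaperone genes were shifted toward the 5′ side, with SSA1 and SSA2 sharing part of their footprints. The measure was the log2 ratio of RPM upstream of the midpoint of the coding sequence to RPM downstream of it (with 0.5 added to each and 5 codons left out at each end), tested with limma over 5293 genes. It was higher in the IP than in the input for 10 of 10 genes in the cytosol and 10 of 10 in the membrane fraction, where 54.2% and 53.8% of all genes were called and 48.3% and 49.4% were higher. The median change of the 10 genes was 0.56 in the cytosol and 0.66 in the membrane fraction, beside 0.32 and 0.35 for all genes. The ratio is taken within each library, so it does not depend on the scaling between libraries. With codons 6 to 60 against the rest, 7 of 10 were called in the cytosol and 6 of 10 in the membrane fraction, so not every gene kept its call with that split. The share of all genes called in the membrane fraction with that split is not given here, so its 6 of 10 cannot be set against it. SIS1 moved to 0.08 and 0.15. Over all genes 1901 were then called in the cytosol, 1549 of them higher, in place of 2871. The median change of all genes was 0.23 in the cytosol and 0.30 in the membrane fraction. The inputs of the 2 fractions gave no call for the 10 genes, with 16.1% of all genes called and none of the 10 at an unadjusted p below 0.05.

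HSP104 shifted most. Footprints upstream of the midpoint made up 60.5% and 63.0% of its coding-sequence RPM in the cytosolic inputs and 82.4% and 82.9% in the IPs, and 63.4% and 62.8% and 82.8% and 82.8% in the membrane fraction. The change in log2 ratio was 1.54 (SE 0.09, adjusted p = 9.1e-06) and 1.48 (SE 0.09, adjusted p = 1.9e-05). By position, the first 10% of its codons held 14.4% and 13.1% of the RPM in the cytosolic inputs and 33.5% and 31.7% in the IPs, while the last 10% held 7.48% and 6.38% and 2.33% and 2.14%. In windows of 20 codons, the IP over input ratio of within-gene shares was highest at codons 21 to 40 (3.34 and 3.98 in the cytosolic replicates, 3.58 and 4.01 in the membrane ones) and lowest at codons 781 to 800 (0.21 and 0.24, and 0.21 and 0.23). The same windows were the extremes in all 4 replicate pairs, though the windows were picked for these values and were not tested.

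SSA4 came next, with 62.9% and 63.8% upstream of the midpoint in the cytosolic inputs and 81.1% and 80.2% in the IPs, a change of 1.26 (SE 0.09, adjusted p = 1.5e-05), and with 1.17 (SE 0.09, adjusted p = 3.2e-05) in the membrane fraction. Its windows of codons 21 to 40 were also the highest in the cytosol, at 2.78 and 2.76. SSA3 shifted by 0.80 (SE 0.18, adjusted p = 0.0054) in the cytosol on far fewer reads, from 59.2% and 52.0% to 66.7% and 72.5%. SSA1 and the Hsp90 genes moved less. SSA1 went from 54.1% and 51.5% to 64.0% and 62.8%, a change of 0.63 (SE 0.10), and SSA2, with its shared codons, changed by 0.54 (SE 0.10). HSP82 went from 53.3% and 52.5% to 63.0% and 62.7%, a change of 0.58 (SE 0.09), and HSC82 from 52.1% and 51.2% to 59.4% and 58.4%, a change of 0.41 (SE 0.09). HSP82 and HSC82 shared their lowest cytosolic window, codons 521 to 540, at 0.47 and 0.45 in HSP82 and 0.50 and 0.40 in HSC82. HSP26 gave the smallest cytosolic shift of the 10, from 48.4% and 48.0% to 53.9% and 55.8%, a change of 0.35 (SE 0.09, adjusted p = 0.013). The J-protein messages changed by 0.46 (SE 0.10, adjusted p = 0.0037) for YDJ1 and 0.50 (SE 0.18, adjusted p = 0.045) for SIS1. The SIS1 call in the cytosol was lost with a pseudocount of 0.1 (adjusted p = 0.056) and without cytosolic input replicate 1 (0.23), IP replicate 1 (0.054) or IP replicate 2 (0.20), and the HSP26 call without cytosolic IP replicate 2 (0.092). In the membrane fraction the YDJ1, SIS1 and HSC82 calls were lost without membrane input replicate 1 or IP replicate 2.

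**Figure D5:**
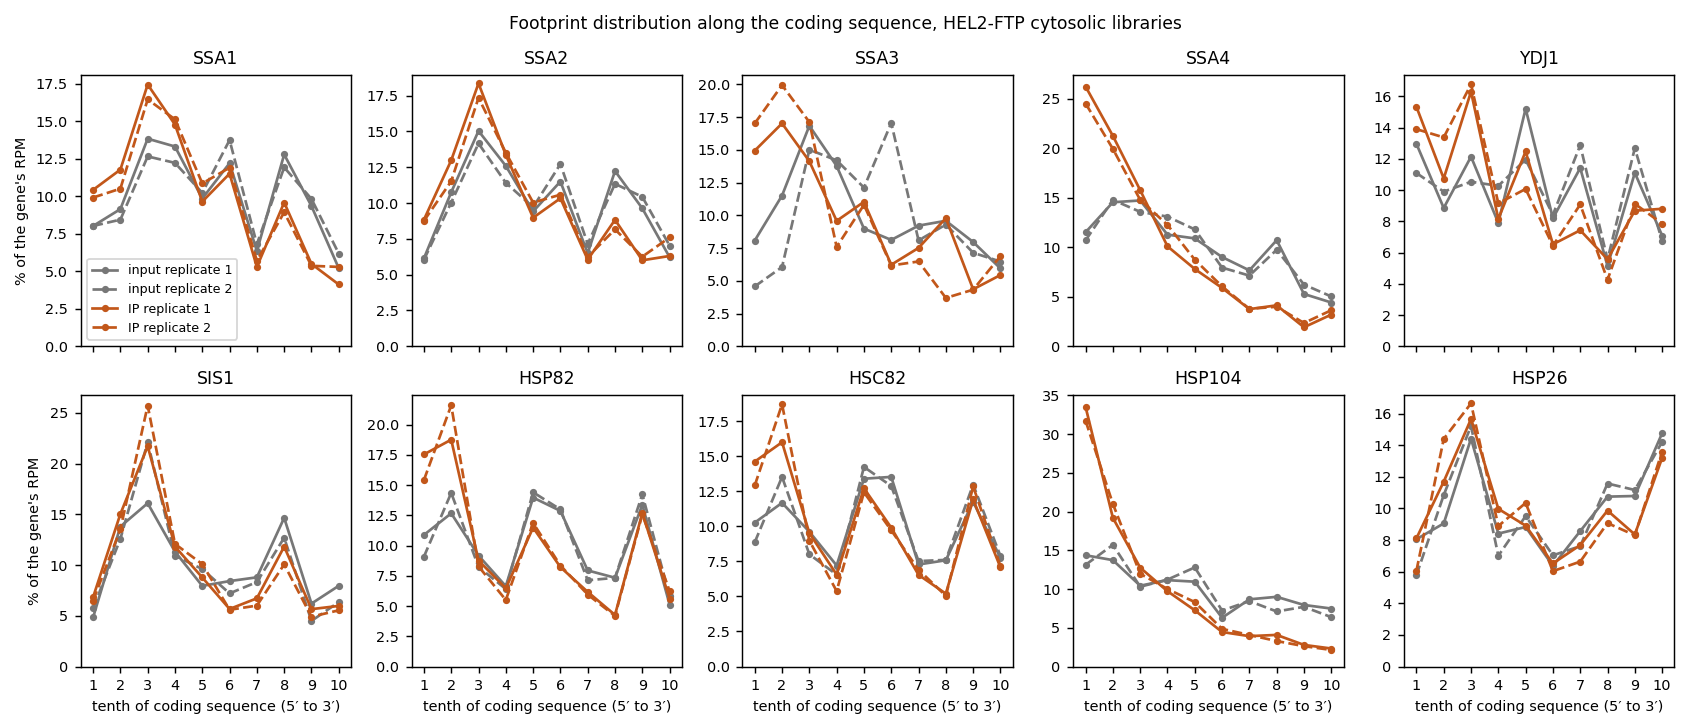
Share of each chaperone gene's coding-sequence RPM in successive steps of 10% of its codons, from 5′ to 3′, in the 4 cytosolic HEL2-FTP libraries, with a line per library (inputs grey, IPs orange). In HSP104 the first 10% of codons holds 33.5% and 31.7% in the cytosolic IPs against 14.4% and 13.1% in the inputs, while for HSP26 the shares of input and IP differ far less.

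Genes that work with these chaperones were followed as lists, with log2 changes ± SE of the fit in parentheses. Of 12 Hsp90 co-chaperones, 11 were lower in the HEL2-FTP cytosolic IP, 9 in the membrane IP and 10 in each IP of SRP72p and GIT1p, with none higher. The share of all genes called lower was 35.6%, 43.0%, 31.0%, 33.0%, 33.2% and 37.2% in that order. Their median log2 changes, to be read against those of all genes given above, were -0.60 and -0.56 in HEL2-FTP, -1.24 and -0.95 in SRP72p and -1.11 and -1.04 in GIT1p. SBA1, the p23 homologue, changed by -2.12 (SE 0.05) in the HEL2-FTP cytosol, and CPR6, a prolyl isomerase that binds Hsp90, fell in every comparison (-1.47 ± 0.05 in the HEL2-FTP cytosol and -1.81 ± 0.12 in the GIT1p membrane fraction). CDC37, which brings kinases to Hsp90, changed by -1.94 (SE 0.16) in the SRP72p cytosol. Between labels AHA1, which stimulates the Hsp90 ATPase, was the only member of this list called, at -0.38 (SE 0.10, adjusted p = 0.012) in the cytosolic inputs and -0.41 (SE 0.10, adjusted p = 0.011) in the membrane inputs.

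Of the 4 nucleotide exchange factors of Hsp70, 3 fell in each HEL2-FTP IP, 2 and 4 in SRP72p and 3 and 4 in GIT1p, cytosol and membrane in turn, with none higher, beside the same shares of all genes (31.0% to 43.0% lower). FES1 fell most in each of the 6 comparisons, by 2.00 (SE 0.05) on a log2 scale in the HEL2-FTP cytosol, and was lower in inputs under the GIT1p label (-0.90 ± 0.13 in the cytosol). SSE2, an Hsp110 gene, was higher there (0.34 ± 0.09). The other 9 cytosolic J-proteins were mixed, with 4 higher and 3 lower in the HEL2-FTP cytosolic IP and none higher and 3 lower in that of SRP72p. These counts are near the shares of all genes (53.6% higher and 35.6% lower in the HEL2-FTP cytosol, 31.0% lower in the SRP72p cytosol), apart from the absence of higher calls in SRP72p, where 2156 of 5714 genes were higher. CAJ1 fell in all 6 comparisons (-1.10 ± 0.06 in the HEL2-FTP cytosol). APJ1, a J-protein linked to disaggregation, was lower in inputs under the GIT1p label, with log2 changes of -1.54 (SE 0.12, adjusted p = 1.1e-06) in the cytosol and -1.62 (SE 0.13, adjusted p = 7.3e-07) in the membrane fraction, and no other gene of that list was called there.

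Among 7 heat-shock regulator and stress genes, HSP12, a small membrane-associated stress protein, fell by 2.53 (SE 0.08) on a log2 scale in the HEL2-FTP cytosolic IP, and HSF1 itself rose there by 1.98 (SE 0.11). HSP12 was higher in inputs under the GIT1p label by 1.87 (SE 0.14, adjusted p = 4.7e-07), as were SSA3 and HSP26, whereas BTN2 and CUR1, sorting factors for misfolded proteins, were lower (-1.10 ± 0.12 and -1.11 ± 0.15). Of the 7, 1 was called higher and 3 lower in the cytosolic inputs between labels, beside 13.4% and 12.4% of all genes, the remaining lower call being HSP42, a small heat-shock protein gene, at -0.49 (SE 0.12). BTN2 went from lower in the HEL2-FTP IPs (-0.77 ± 0.06 in the cytosol) to higher in those of SRP72p (1.31 ± 0.13) and GIT1p (1.01 ± 0.12). That contrast between strains was not tested. Of 7 organelle chaperones, the mitochondrial HSP10 fell in all 6 IP comparisons (-2.38 ± 0.05 in the HEL2-FTP cytosol), while KAR2 and LHS1 rose in the 3 cytosolic IPs (1.29 ± 0.07 and 1.25 (SE 0.12) in HEL2-FTP). In the membrane IPs 2 of this list were higher and 2 lower in HEL2-FTP, 1 and 6 in SRP72p and 0 and 4 in GIT1p. Of all genes, 43.0%, 33.0% and 37.2% were lower there.

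The genes whose group means were most like those of each chaperone were found among 5513 genes by Pearson's r over the 12 groups, each gene centred within the HEL2-FTP groups and within the other 8. The groups share libraries and scaling, so r is a description. SSA3 was most like INO1 (0.990), which encodes inositol phosphate synthase, and TIR3 (0.979), a cell wall mannoprotein gene. HSP26 was most like HSP12 (0.982) and EMI2 (0.978). YDJ1 was most like the ribosomal protein genes RPS12 (0.995) and RPS25A (0.995), and SSA2 like RPL18B (0.984) and RPP1A (0.983), of the same class. HSP82 was nearest to VPS24 (0.995), HSC82 to ADI1 (0.989), HSP104 to MTG1 (0.992) and BNA3 (0.992), SSA1 to SPC19 (0.988) and SIS1 to YNL134C (0.982). SSA4 had the weakest best match, PST2 (0.851). Among the 10 genes themselves, YDJ1 and HSC82 were the closest pair (0.979), and SSA3 and HSP26 reached 0.688.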

How the data were processed

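Ribosome footprints were measured in 24 libraries, grouped by sample title. Per the submitters' processing notes, CASAVA 1.8, UMI-tools, Bowtie2 and TopHat and the build sacCer3 were used; their roles and the counting rule are not given in the sources used here. For HEL2-FTP the authors deposited RPM per codon of 6663 transcripts, summing to 999421 to 999937 per library, of which 97.9% to 98.7% lay in coding sequences. The deposited ratio per codon was not used. Depth was estimated at 22149925 to 38859003 reads from the smallest value times 35 or 36, which made 75.1% to 80.1% of low gene sums whole within 0.05, so RPM was not turned into counts. For SRP72p and GIT1p the authors deposited whole-number counts of 6696 genes; the RPKM values beside them were not used. Symbols and coordinates came from a RefSeq table of R64, which matched 6008 of the 6696 genes. Lengths were equal for 94.5% of these, the 10 chaperone genes included.

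RPM summed over the coding sequence was tested as log2(RPM + 0.5) with limma 3.58.1 (trend), over 8 libraries and the 5532 genes whose mean RPM reached 1. Log2 changes on this scale understate those of low genes. Counts were tested with edgeR 4.0.16 (quasi-likelihood, TMM, default filter) over 16 libraries and 5714 genes, in R 4.3.3, with the spread estimated over all groups together. Levels in CPM use library totals. DESeq2 1.42.0 and the other alternatives are in the closing section. The scripts were tested on simulated data. The members, lists and tests were chosen with earlier results of these data known. All 10 members were named, and from each list up to 3 called genes with the largest change in a comparison; a gene so named may be given again elsewhere. No replicate pair of count libraries agreed within sampling noise, and no pair of RPM libraries held identical values. The labels do not say what a replicate number marks, and the main tests used no replicate block.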

Additional observations from a re-analysis of the deposited data

Results flagged for a closer look

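The log2 change of HSC82 between Hel2 IP and input in HEL2-FTP differed between the fractions by -0.22 (SE 0.07, adjusted p = 0.025, limma interaction test), with a deeper fall in the membrane fraction. The test of the difference itself brought it here. In that test 29.2% of all genes were called, 25.9% lower, the median of all genes was -0.11, and 34.6% of genes lay below HSC82. With libraries centred on their medians HSC82 was no longer called. Inputs and IPs were 4411 and 4276 RPM and 2086 and 2110.4 RPM in the cytosol and 4181 and 4197 RPM and 1719.5 and 1747 RPM in the membrane fraction, so both membrane IPs lay below both cytosolic IPs. HSP82 changed in the same direction by -0.19 (SE 0.07, adjusted p = 0.061) and did not pass. The adjusted p of HSC82 ran from 0.060 to 0.085 without each single library other than cytosolic input replicate 1.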

How the results depend on the processing

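Of the values of single members under alternatives, 1574 kept their side of the threshold, 76 gained a call and 49 lost one. Another 8 turned sign with a call before or after the change. Sign changes of values called in neither setting are counted among the 1574. With libraries centred on their medians, SIS1 (-0.19), HSP82 (-0.27), HSP104 (-0.24) and HSP26 (-0.18) turned lower in HEL2-FTP membrane against cytosolic inputs and SSA3 turned to -0.045 in the cytosolic and -0.033 in the membrane IP; with library size alone SSA2 (-0.36) and HSP26 (-0.094) turned lower in the GIT1p membrane IP. For members called, median centring gave 9 in place of 0 for HEL2-FTP inputs and for the HEL2-FTP interaction 3 other genes, all higher (SSA1, SSA2 and SSA4), in place of HSC82, lower, and SSA1 and SSA2 over differing codons, chosen after seeing the data, gave 1 for those inputs. DESeq2 gave 7 and its size factors 2 in place of 0 for SRP72p inputs, and DESeq2 5 in place of 0 for the label interaction in the membrane fraction. Library size alone gave 8 in place of 5 for the GIT1p cytosolic IP, and codons 6 to 60 gave 6 in place of 10 for position in the membrane fraction. These causes were not tested.

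Leaving out each replicate in turn gave 0 to 1 members called for the HEL2-FTP inputs, 0 to 1 for its interaction, 0 to 4 for SRP72p inputs, 2 to 7 for the membrane inputs between labels and 0 to 3 for the label interaction in the membrane fraction. For the IPs it gave 9 in the HEL2-FTP cytosol, 8 to 9 in its membrane fraction, 7 to 8 and 5 to 7 in SRP72p, and 4 and 5 to 6 in GIT1p, and it gave 4 to 6 for the cytosolic inputs between labels and 8 to 10 and 7 to 10 for position. The counts of 0 for SRP72p inputs became 4 without SRP72p cytosolic input replicate 1, 2 without replicate 2 and 3 without SRP72p membrane input replicate 2, the 0 for the membrane label interaction became 3 without SRP72p membrane input replicate 1, and the 5 for membrane inputs between labels became 2 and 3 without GIT1p membrane input replicates 1 and 2.

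With the replicate block, 4 members were called for the HEL2-FTP inputs (SSA3 higher, SSA1, SSA2 and YDJ1 lower), 2 for its interaction and 10 for its membrane IP, where HSP104 joined. Of the 5532 genes tested, the block called 3447 in place of 2997, 2004 in place of 1615 and 4955 in place of 4893, in that order. No other count of members changed. Same-numbered differences correlated over genes by 0.10, 0.42 and 0.28 in HEL2-FTP (inputs, cytosolic IP and membrane IP), by -0.08 to 0.11 within SRP72p and GIT1p and by 0.07 and -0.43 between labels; with 2 pairs each and no label on what a number marks, the pairing could not be settled. For the membrane inputs between labels, where r was -0.43, exchanging the numbers in the replicate block, chosen after seeing the data, called 1045 genes and 5 members, against 1044 and 5.

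Over all genes, median centring called 5154 (1011 higher and 4143 lower) in place of 2997 (1173 higher and 1824 lower) for HEL2-FTP inputs, 5007 (2346 higher and 2661 lower) in place of 4936 (2964 higher and 1972 lower) for its cytosolic IP and 1804 (850 higher and 954 lower) in place of 1615 (183 higher and 1432 lower) for its interaction. DESeq2 size factors called 2072 (867 higher and 1205 lower) in place of 1191 (910 higher and 281 lower) for SRP72p inputs, 3246 (1754 higher and 1492 lower) in place of 3563 (1439 higher and 2124 lower) for the GIT1p membrane IP, 1637 (528 higher and 1109 lower) in place of 1476 (767 higher and 709 lower) for cytosolic and 1107 (489 higher and 618 lower) in place of 1044 (684 higher and 360 lower) for membrane inputs between labels. Library size alone called 4377 (1683 higher and 2694 lower) in place of 3970 (2072 higher and 1898 lower) for the GIT1p cytosolic IP, 4194 (993 higher and 3201 lower) for its membrane IP, 1668 (1288 higher and 380 lower) for cytosolic inputs between labels, and 963 (216 higher and 747 lower) and 684 (48 higher and 636 lower) in place of 633 (478 higher and 155 lower) and 140 (61 higher and 79 lower) for the label interactions. For GIT1p inputs the called genes were 957 (945 higher and 12 lower), 1155 (890 higher and 265 lower) by DESeq2 size factors and, by library size alone, 1015 (894 higher and 121 lower); DESeq2 itself called 264 for the membrane label interaction, and codons 6 to 60 called 1901 in place of 2871 for cytosolic position. Leaving out a replicate brought the called genes to 2404 and 2132 for SRP72p inputs without its cytosolic inputs 1 and 2, to between 276 and 397 for the cytosolic label interaction and between 32 and 384 for the membrane one, and to 851 and 878 (cytosolic) and 530 and 671 (membrane) without GIT1p inputs 1 and 2 between labels.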
